A study of Mus musculus with 9 samples.

Results

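Meningeal lymphatic endothelial cells (MLECs) from mice with B16 tumors were compared with MLECs from mice that had received PBS. B16 is a mouse melanoma cell line that grows in C57BL/6 mice. The comparison used 6 of the 9 RNA-seq libraries of the series, 3 of B16-associated MLECs and 3 of control MLECs, and every gene with a value of at least 1 FPKM in at least 3 of these 6 libraries, which were 8484 of 24321 listed genes. FPKM are fragments per kilobase of transcript, scaled to the mapped fragments of a library. Each library held 10 cells sorted from meninges pooled from 6 male mice aged 10 weeks. Per the labels, 5 µL with 100000 B16 cells, or 5 µL of PBS, was injected into the cisterna magna, and B16 mice were killed about 2 weeks later, whereas the study's methods place the cells under the dura and use fewer of them. Cells were gated as CD31+, CD45- and LYVE-1+ by the labels and methods, while the results text names PDPN in place of LYVE-1. No transgene or knockout is named for these mice, and each replicate is a separate pool of animals.

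Lymphatic and blood vessels are lined by related cells. Both carry PECAM1 and VE-cadherin, and lymphatic cells add the transcription factor PROX1, the receptor VEGFR3 (Flt4), podoplanin (Pdpn), the hyaluronan receptor LYVE1 and the chemokine CCL21, which guides dendritic cells into lymphatics. Blood endothelium is known instead for the VEGF receptor FLT1, the sialomucin CD34, the adhesion molecule ESAM and, where capillaries are fenestrated, the diaphragm protein PLVAP. The lymphatics of the dura drain cerebrospinal fluid and carry antigen to the neck nodes.

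Promoter windows of 3 genes, placed by RefSeq, are shown as examples. Igfbp3 and Flt1 are among the genes that rose and Mmrn1, a matrix protein of lymphatic endothelium, among those that fell. The 250 bases before the transcription start are printed as RefSeq gives them on GRCm38.p6, each 5′ to 3′ on the strand of the gene. Gene positions given below are from GENCODE M1 on mm9, an annotation that can place a start elsewhere. For Mmrn1 it starts the gene at 60874970 of chromosome 6 in mm9, a build with other positions. Whether the printed Mmrn1 window lies before that start or inside the gene was not tested. Capitals mark the letters AGGAAG of ETS factor sites and ATTGTT of SOX factor sites, on either strand.
Igfbp3, chr11:7213924-7214173, minus strand: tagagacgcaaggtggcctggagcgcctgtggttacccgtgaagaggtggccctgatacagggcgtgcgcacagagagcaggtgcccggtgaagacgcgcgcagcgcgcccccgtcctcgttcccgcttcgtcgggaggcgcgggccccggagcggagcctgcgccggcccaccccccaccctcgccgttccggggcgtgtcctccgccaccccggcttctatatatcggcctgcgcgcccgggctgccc
Flt1, chr5:147726012-147726261, minus strand: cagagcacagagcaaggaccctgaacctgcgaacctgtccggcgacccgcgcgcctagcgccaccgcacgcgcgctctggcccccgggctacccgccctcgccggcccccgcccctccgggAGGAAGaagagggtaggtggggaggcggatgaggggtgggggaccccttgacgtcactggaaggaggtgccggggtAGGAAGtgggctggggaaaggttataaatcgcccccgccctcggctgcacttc
Mmrn1, chr6:60944067-60944316, plus strand: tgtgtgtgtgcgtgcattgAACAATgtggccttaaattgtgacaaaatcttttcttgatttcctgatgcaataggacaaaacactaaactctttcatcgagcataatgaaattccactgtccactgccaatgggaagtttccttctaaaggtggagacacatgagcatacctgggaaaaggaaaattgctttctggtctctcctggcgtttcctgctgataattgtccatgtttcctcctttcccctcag
The Flt1 window held AGGAAG in 2 places and the Mmrn1 window held ATTGTT in 1 place, on the opposite strand, while the Igfbp3 window held neither. In windows that run from 250 bases before to 50 bases after the start, AGGAAG was present in 41.6% of the 161 matched promoters of genes that rose, 25.9% of the 54 of genes that fell and 32.4% of the 6838 of all genes tested. The corresponding shares were 5.59%, 18.5% and 5.51% for ATTGTT, 6.21%, 5.56% and 4.43% for the AP-1 letters TGANTCA, and 19.3%, 14.8% and 27.1% for ACGTG, the core of hypoxia response elements. These shares are given without a test.

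The control libraries listed 7303, 8688 and 8152 genes above 0 and the B16 libraries 8736, 9258 and 9950, in the order of replicates 1 to 3, which is also the order of all values below. Every control library had fewer aligned reads than every B16 library, and among the latter replicate 1 had the fewest, so that depth and tumor cannot be told apart by design. A value of 0 is therefore given as listed at 0, not as absence. Pearson correlations of log2(FPKM + 1) ran from 0.617 to 0.666 between control libraries, from 0.754 to 0.818 between B16 libraries and from 0.597 to 0.698 between a control and a B16 library. In control replicate 1 the smooth muscle genes Acta2, Tagln and Myh11 had 505, 641 and 57.2 FPKM, against at most 0.0813 in the other controls. B16 replicate 1 was set apart by the small nuclear RNA gene Rnu12, which took 11.1% of its summed FPKM.

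B16-associated MLECs gained transcripts of angiogenic and blood endothelial genes and lost transcripts of a smaller set that held the lymphatic genes Mmrn1 and Thy1. Of the 8484 genes tested, 203 rose (2.39%) and 66 fell (0.778%) at an adjusted p under 0.05 (limma on log2(FPKM + 1), Benjamini-Hochberg adjustment), together 3.17%. The median difference, B16 minus control on that log2 scale, was 4.00 in the genes that rose, -3.39 in those that fell and 0.18 over all genes tested. The 269 genes had no overlap between the groups, an order that 910 genes (10.7%) showed upward and 682 (8.04%) downward among all those tested. Of the 203 genes, 67 were listed at 0 in each control library and 67 were above 0 in each. Of the 66, 29 were above 0 in each B16 library and 9 were listed at 0 in each. A gene at 0 in every library of 1 group was tested only if every library of the other group reached 1 FPKM. For such genes, among them Ly6c1, Phgdh and Tslp, the order without overlap was fixed by the filter and adds no support. In libraries of pooled cells, a change in the share of cells that carry a transcript and a change in its amount per cell cannot be told apart.

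**Figure D1:**
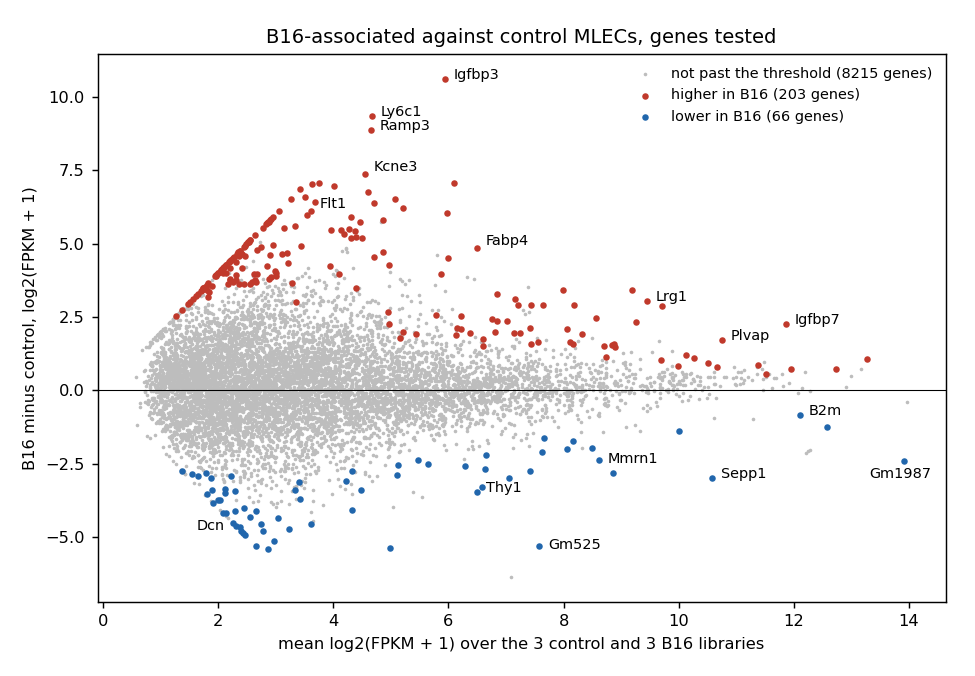
Difference of B16-associated from control MLECs against mean level, both on the log2(FPKM + 1) scale, for the 8484 genes tested, with the 203 genes that rose in red and the 66 that fell in blue. Igfbp3 lies at the top with 10.61, and among the abundant genes Igfbp7 lies above and Sepp1 below the bulk of genes.

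The largest rise was that of Igfbp3, a secreted binding protein of insulin-like growth factors whose gene spans 7106089 to 7113926 of chromosome 11 in mm9. Its FPKM was 0.276, 0.711 and 0.748 in control and 1501, 3405 and 2823 in B16 MLECs. The lowest B16 library was thus far above the highest control, and the log2 difference was 10.61 (standard error 0.35, limma adjusted p = 4.71e-08). Igfbp7, which encodes another binding protein of this family, was abundant already in controls with 1680.5, 1876 and 1546 FPKM and reached 5131, 9108 and 11875 FPKM, a rise of 2.28 (adjusted p = 0.0101). The rise of Igfbp5 from 28.6, 22.8 and 3.66 to 227, 110.5 and 477 FPKM measured 3.95 (adjusted p = 0.0317). These 3 were the only calls among the 9 tested genes of the insulin-like growth factor list. The receptor gene Igf1r had 5.47, 5.80 and 3.08 FPKM in control and 1.53, 1.10 and 0.607 in B16 MLECs, without passing the threshold (adjusted p = 0.272). With 1 library left out, the call of Igfbp3 was kept in all 6 cases, that of Igfbp7 was lost without B16 replicate 2 or 3 (adjusted p up to 0.0566), and that of Igfbp5 was lost without control replicate 3 or B16 replicate 1, 2 or 3 (adjusted p up to 0.138).

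A further 6 genes with large rises have unlike known roles. Ramp3, which encodes a partner of the adrenomedullin receptor, was listed at 0, 0.540 and 0 FPKM in control and 378, 608 and 695 in B16 MLECs. Its log2 difference was 8.88 (standard error 1.10, limma adjusted p = 0.00241). Stc1, the gene of the secreted hormone stanniocalcin, went from 0, 0 and 1.64 to 262, 72.0 and 84.2 FPKM, with the highest B16 value in the shallowest library. That rise of 6.41 (adjusted p = 0.00192) was kept with each library left out and also with aligned reads as a covariate. Kcne3, a beta subunit of potassium channels, rose by 7.36 (adjusted p = 0.00373) with widely spread B16 values of 95.5, 1062 and 264 FPKM against 1.09, 1.94 and 0 in control. Tmem252, which encodes a small transmembrane protein, had 0.546, 0.938 and 0 FPKM in control and close values of 184, 158 and 195 in B16 MLECs, a rise of 6.96 (adjusted p = 1.47e-05). Entpd1, the ectonucleotidase that clears extracellular ATP from the vessel surface, rose from 0, 11.7 and 0 to 201, 224 and 351 FPKM (difference 6.76, adjusted p = 0.00241). Fam167b, little known, was listed at 0 in all controls and rose to 20.1, 396 and 183 FPKM (adjusted p = 0.00326). Each of these 6 calls was kept with any 1 of the 6 libraries left out.

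Blood endothelial genes rose as a group by count. Of the 26 on the list, all tested, 11 rose and 0 fell (limma; at an unadjusted p under 0.05, 16 were higher and 0 lower, against 10.7% higher and 5.59% lower of all genes tested, the background for each such count below), and the median difference was 1.71 against 0.18 over all genes. Flt1, the decoy-like VEGF receptor at 148373180 to 148537587 of chromosome 5 in mm9, had 0.0997, 0.856 and 0.544 FPKM in control and 49.0, 156 and 133 in B16 MLECs. Its rise of 6.12 (standard error 0.59, adjusted p = 5.73e-04) set it apart from Kdr, the main signaling VEGF receptor of blood vessels, whose 30.3, 56.7 and 43.3 and 17.2, 54.4 and 39.6 FPKM overlapped (difference -0.32, adjusted p = 0.829). Cd34 stood at 2.73, 14.3 and 0.370 FPKM in control and 153, 592 and 349 in B16 MLECs (difference 6.21, adjusted p = 0.00241). The junction gene Esam had 1.89, 34.1 and 3.57 and 335, 748 and 535 FPKM (difference 6.05, adjusted p = 0.00245). In each of Flt1, Cd34 and Esam the deeper B16 replicates 2 and 3 were above replicate 1, and replicate 1 was still above every control. Rgcc, a regulator of the cell cycle that is also found in endothelium, rose by 6.40 (adjusted p = 0.0092) with B16 values from 74.0 to 747 FPKM.

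Ly6c1, a GPI-anchored surface protein of brain capillary endothelium, had 0 FPKM listed in every control library and 788, 393 and 873 in the B16 libraries (limma adjusted p = 7.81e-07). Its relative Ly6a was at 0, 206 and 0 and 699, 413 and 1655 FPKM, so that control replicate 2 was unlike the other controls, and its rise of 7.05 (adjusted p = 0.0459) was lost without control replicate 1 or 3 or B16 replicate 1, 2 or 3 (adjusted p up to 0.169). Genes of the Ly6 cluster resemble one another and could share reads, so that the value of each is uncertain on its own. The other called members of the blood endothelial list were Emcn, Plvap, Eng, Gpihbp1 and Nrp1, with differences of 2.90, 1.71, 1.53, 2.34 and 3.94. The calls of Emcn and Plvap were kept with any 1 library left out, that of Nrp1 was lost without control replicate 1 or 3 or B16 replicate 2 or 3 (adjusted p up to 0.142), that of Eng was lost without control replicate 2 or 3 or B16 replicate 1, 2 or 3 (adjusted p up to 0.105), and that of Gpihbp1 was lost without any 1 of the 6 libraries (adjusted p up to 0.15). Cldn5, the tight junction claudin of endothelium, did not pass the threshold, with 1497, 1529 and 1702 FPKM in control and 1679, 1203 and 1136 in B16 MLECs.

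**Figure D2:**
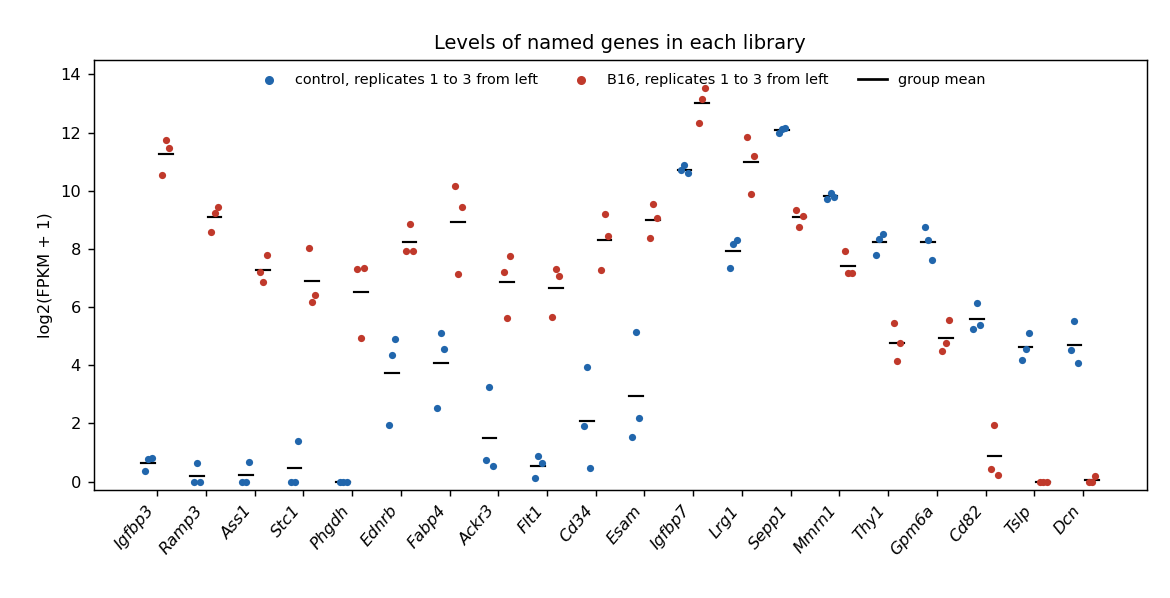
Level of 20 named genes as log2(FPKM + 1) in each control library (blue) and each B16 library (red), with a black bar for the mean of each group of 3. The groups are apart in each gene shown, and the 7 genes from Sepp1 to the right lie lower in the B16 libraries.

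Lymphatic markers pointed the other way. Of the 18 tested members of the list, 2 fell and 1 rose at an adjusted p under 0.05, and the median difference was -1.63. An order with every B16 library below every control was seen in 11 of the 18, against 8.04% of all genes tested. Mmrn1 dropped from 842, 966 and 887 FPKM to 242, 145 and 143 FPKM, a difference of -2.38 (standard error 0.51, limma adjusted p = 0.0322). Thy1, a surface glycoprotein that lymphatic endothelium carries and most blood endothelium lacks, went from 222, 325 and 367 to 42.7, 16.6 and 25.9 FPKM, a difference of -3.45 (adjusted p = 0.0149). The member that rose was Foxc2, a transcription factor of lymphatic valves, listed at 0 in all controls and at 7.25, 7.43 and 8.67 FPKM in B16 MLECs (adjusted p = 0.0292). All 3 calls were fragile. That of Mmrn1 was lost without any 1 of the 6 libraries (adjusted p up to 0.12), that of Thy1 was lost without B16 replicate 2 or 3 (adjusted p up to 0.0673), and that of Foxc2 was lost without any 1 of the 6 libraries (adjusted p up to 0.0996).

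Among the defining lymphatic genes, none of the first 3 on the list passed the threshold. Prox1 had 20.9, 33.7 and 42.2 FPKM in control and 2.37, 3.72 and 3.12 in B16 MLECs without overlap, a difference of -2.99 (adjusted p = 0.0887). Flt4 was likewise lower in each B16 library, with 174, 205 and 219.8 against 106, 56.3 and 59.4 FPKM (difference -1.47, adjusted p = 0.0629). Pdpn overlapped, with 147, 316 and 372 and 247, 57.5 and 142 FPKM, and B16 replicate 1 lay within the range of the controls. Lyve1, chosen after its values were seen because it defined the gate, had 1705, 1250.4 and 974 FPKM in control and 1895, 628 and 911 in B16 MLECs (difference -0.31, adjusted p = 0.786), with B16 replicate 1 above and replicates 2 and 3 below every control. The CCL21 genes are near-identical copies. In GENCODE M1 the 402 coding bases of the gene model Gm1987, chosen after its values were seen, equal those of Ccl21a and differ from those of Ccl21b and Ccl21c at 2 positions each, so that the split of reads among them is uncertain. Gm1987, which had the highest FPKM of all genes in each control library, fell from 33261, 37115 and 35396 to 11435, 3443 and 7674 FPKM (difference -2.39, limma adjusted p = 0.0208), a call lost without control replicate 1 or 3 or B16 replicate 2 or 3 (adjusted p up to 0.0665). Ccl21c had 7384, 13803 and 9750.3 and 4187, 1204 and 2652 FPKM and Ccl21b 3075, 365 and 1618 and 0.0709, 16.7 and 179 FPKM, both lower in every B16 library without passing the threshold (adjusted p = 0.0966 and 0.088), and Ccl21a was too low to be tested. Prox1, Flt4, Pdpn and Lyve1 were above 0 in each B16 library, with Prox1 at 3.72 FPKM or less, which does not by itself establish the labelled cell type. Summed over the list, which does not hold Gm1987, lymphatic markers made 14044 to 17866 FPKM in control and 2324 to 7238 in B16 libraries, and blood endothelial markers 5209.9 to 7325 and 11673 to 15793 FPKM. By these lists the lymphatic sum was the larger in every control and the blood endothelial sum in every B16 library. Pecam1 and Cdh5, which both kinds of endothelium express, had differences of 0.81 and 0.49 and did not pass the threshold. The part of blood endothelial cells or their RNA in any of the other differences was not tested.

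**Figure D3:**
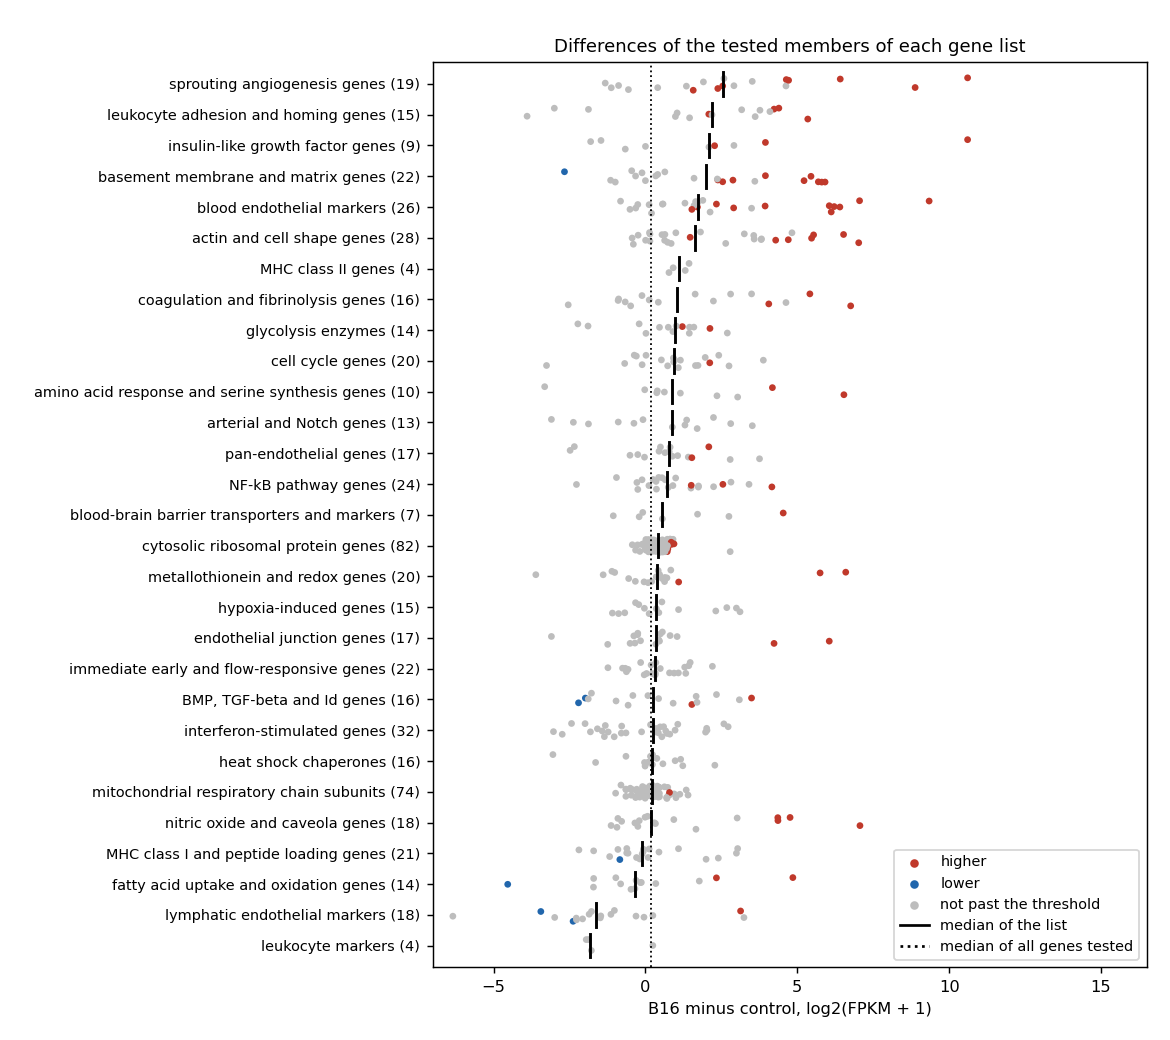
Differences of the tested members of each gene list with at least 4 of them, B16 minus control on the log2(FPKM + 1) scale, with the number tested in parentheses. Black bars are list medians, which run from -1.83 for leukocyte markers to 2.54 for sprouting genes, and the dotted line is the median of all genes, 0.18.

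Like the other lists, the sprouting list was chosen with earlier results of these data known, so its count is a description and no independent support. It holds genes of the tip cells that lead growing vessels, of which 19 were tested. By limma 8 rose and 0 fell (11 higher and 0 lower at an unadjusted p under 0.05), with a median of 2.54. Besides Igfbp3, Ramp3 and Stc1, they were Mcam, Apln, Col4a1, Col4a2 and Trp53i11. Apln, the peptide ligand made by tip cells, had 0.208, 0 and 0 FPKM in control and 17.7, 20.3 and 45.5 in B16 MLECs (difference 4.64, adjusted p = 0.0101). Its receptor gene Aplnr was not tested, with 0, 0 and 0 and 0.293, 27.3 and 36.8 FPKM. Mcam, an adhesion molecule of endothelium and pericytes, rose from 38.4, 3.73 and 0 to 137, 155 and 155 FPKM (difference 4.71, adjusted p = 0.031). Esm1, a further tip cell gene, was found in only 1 control library and unevenly in the B16 libraries, with 1.05, 133 and 6.21 FPKM. The call of Apln was lost without B16 replicate 3 (adjusted p = 0.061), that of Mcam was lost without control replicate 2 or B16 replicate 1, 2 or 3 (adjusted p up to 0.108), and that of Trp53i11 (difference 1.57) was lost without control replicate 1 or 3 or B16 replicate 1, 2 or 3 (adjusted p up to 0.148). The ligand genes Vegfa and Vegfc were too low to be tested.

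Basement membrane and matrix genes rose in 9 cases and fell in 1 of 22 tested, with a median of 1.98. Col4a1 and Col4a2, the paired chains of type IV collagen that share a divergent promoter, had 22.8, 75.8 and 69.0 and 19.2, 25.6 and 52.7 FPKM in control. In B16 MLECs they had 191, 311 and 301 and 138, 219 and 186 FPKM, and their rises of 2.38 and 2.54 (adjusted p = 0.0208 and 0.0101) were alike in size. Ecm1, a secreted matrix glycoprotein, went from 0.368, 10.9 and 0 to 177, 148 and 133 FPKM (difference 5.91, adjusted p = 0.0101). Tgfbi and Timp1, a matrix protein induced by TGF-beta and an inhibitor of metalloproteinases, were listed at 0 in all controls. In B16 MLECs they had 20.2, 113 and 70.8 and 15.1, 99.6 and 84.4 FPKM (adjusted p = 0.0024 and 0.00326), with the lowest value of both in replicate 1. Vwa1, a basement membrane protein, rose by 5.45 (adjusted p = 0.00208). Sparcl1 rose by 5.22 (adjusted p = 0.0459), a call lost without control replicate 2 or 3 or B16 replicate 1, 2 or 3 (adjusted p up to 0.159). The calls of Ecm1, Tgfbi, Timp1 and Vwa1 were kept with any 1 library left out, that of Col4a1 was lost without B16 replicate 2 or 3 (adjusted p up to 0.0945), and that of Col4a2 was lost without B16 replicate 2 or 3 (adjusted p up to 0.0553). The laminin gene Lama4, among the first 3 of the list, did not pass the threshold (43.6, 30.0 and 52.1 and 27.8, 41.3 and 22.4 FPKM), and the member that fell was Timp2, another metalloproteinase inhibitor (difference -2.67), a call lost without control replicate 1 or 3 or B16 replicate 2 or 3 (adjusted p up to 0.121).

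Some genes of vascular tone rose as well. Ass1, which makes the arginine precursor that feeds nitric oxide synthase, was at 0, 0 and 0.592 FPKM in control and 146, 116 and 221 in B16 MLECs, a rise of 7.06 (standard error 0.71, limma adjusted p = 7.70e-04). Ddah1, which degrades an inhibitor of that synthase, was listed at 0 in all controls and at the close values of 18.3, 20.8 and 19.6 FPKM in B16 MLECs (adjusted p = 0.00935). Nos3, the endothelial synthase itself, had 0, 2.80 and 1.27 and 53.0, 23.1 and 56.0 FPKM (difference 4.36, adjusted p = 0.0171), and Nostrin, which governs its traffic, was at 0 in controls and 5.29, 62.6 and 48.9 FPKM in B16 MLECs (adjusted p = 0.0158). These 4 were the calls among 18 tested nitric oxide and caveola genes, against 2.39% called higher of all genes tested. At an unadjusted p under 0.05 (limma), 6 of the 18 were higher and 2 lower. The list did not move as a whole, with 10 differences above and 8 below 0 and a median of 0.18, as over all genes. The call of Nos3 was lost without B16 replicate 1 or 3 (adjusted p up to 0.0933), and that of Nostrin was lost without B16 replicate 2 or 3 (adjusted p up to 0.0923). Ednrb, an endothelin receptor outside that list, rose from 2.89, 19.4 and 29.0 to 242, 463 and 243 FPKM (difference 4.50, adjusted p = 0.00562). Its call was kept with any 1 library left out.

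Coagulation and fibrinolysis genes rose in 3 of 16 tested cases and fell in 0 (limma), with 8 higher and 1 lower at an unadjusted p under 0.05. The 3 called were Entpd1, Procr and Ptgs1. Procr, the receptor of protein C, had 0, 12.9 and 1.30 FPKM in control and 89.1, 58.8 and 459 in B16 MLECs (difference 5.41, adjusted p = 0.0197), with replicate 3 far above the others. Ptgs1, the constitutive cyclooxygenase, rose by 4.06 (adjusted p = 0.0287). The call of Procr was lost without control replicate 3 or B16 replicate 3 (adjusted p up to 0.0933), and that of Ptgs1 was lost without control replicate 1 or 3 or B16 replicate 1, 2 or 3 (adjusted p up to 0.133). Thbd, the gene of thrombomodulin, overlapped between the groups, with 12.8, 50.3 and 13.2 and 64.5, 40.3 and 111 FPKM, and Vwf did not pass the threshold although the groups were apart (0, 1.92 and 0.0956 and 21.2, 3.67 and 43.0 FPKM, adjusted p = 0.0709).

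Genes that bind or call leukocytes rose in 4 of 15 tested cases and fell in 0 (limma; 9 higher and 2 lower at an unadjusted p under 0.05), with a median of 2.19. Ackr3, the scavenging receptor of CXCL12, had 0.678, 8.44 and 0.458 FPKM in control and 145, 48.3 and 214 in B16 MLECs (difference 5.34, adjusted p = 0.00808). Cx3cl1, a membrane-bound chemokine, went from 0, 0 and 0.283 to 23.6, 12.4 and 34.8 FPKM (difference 4.39, adjusted p = 0.0109). Jam2 and Icam2, adhesion molecules of the vessel wall, rose by 4.23 and 2.08 (adjusted p = 0.0322 and 0.0418). Icam1 was higher in each B16 library, at 211, 95.5 and 114 against 0, 68.4 and 17.5 FPKM, and did not pass the threshold (adjusted p = 0.134). Vcam1 was uneven in both groups. B16 replicate 3 was the only library whose removal ended the calls of Ackr3 (adjusted p = 0.0522) and Cx3cl1 (adjusted p = 0.0609). The call of Jam2 was lost without control replicate 1 or 3 or B16 replicate 1, 2 or 3 (adjusted p up to 0.153), and that of Icam2 was lost without control replicate 1 or B16 replicate 1, 2 or 3 (adjusted p up to 0.164).

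No gene of antigen presentation and no interferon-stimulated gene of the lists was called higher. B2m, the light chain of MHC class I, was the call among 21 tested genes of class I and peptide loading, and it fell from 4629.6, 5650.3 and 7943 to 3268, 3525 and 3114 FPKM (difference -0.84, standard error 0.18, limma adjusted p = 0.0307). The call was lost without control replicate 3 or B16 replicate 1, 2 or 3 (adjusted p up to 0.108). The heavy chain genes H2-K1 and H2-D1, which share sequence with one another and with other class I genes, overlapped between the groups with differences of -0.62 and -0.11. Of 32 tested interferon-stimulated genes 0 were called by limma (2 higher and 3 lower at an unadjusted p under 0.05, a share near the 16.3% of all genes tested), and their median of 0.24 was near that of all genes, falling to -0.18 with quantile normalization. MHC class II genes, of which 4 were tested with 0 calls (0 at an unadjusted p under 0.05), were found unevenly, as in H2-Ab1 with 0, 0 and 72.7 FPKM in control and 56.3, 0 and 24.3 in B16 MLECs. In the NF-kB pathway 3 of 24 genes rose and 0 fell (limma; 7 higher and 0 lower at an unadjusted p under 0.05). They were Map3k14, the kinase of the noncanonical branch, with 0 in all controls and 7.17, 4.22 and 3.69 FPKM in B16 MLECs, the receptor Tnfrsf1a with 49.5, 60.0 and 60.2 and 177, 146 and 165 FPKM, and the nuclear cofactor Bcl3 with 0, 0.985 and 0 and 23.2, 18.2 and 23.4 FPKM. Their adjusted p were 0.0374, 0.0313 and 0.0325. The call of Map3k14 was lost without any 1 of the 6 libraries (adjusted p up to 0.0998), that of Tnfrsf1a was lost without control replicate 1 or B16 replicate 1, 2 or 3 (adjusted p up to 0.108), and that of Bcl3 was lost without control replicate 1 or 3 or B16 replicate 1, 2 or 3 (adjusted p up to 0.118).

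In metabolism, the calls were few and of unequal kind. Phgdh, the first enzyme of serine synthesis, was listed at 0 in all controls and at 157, 29.6 and 163 FPKM in B16 MLECs (adjusted p = 0.0024), and Asns, asparagine synthetase, at 0 and 18.5, 26.8 and 9.97 FPKM (adjusted p = 0.0225). Of 14 tested glycolysis enzymes Gapdh and Ldha rose, by 1.21 and 2.12 (adjusted p = 0.025 and 0.0258). At an unadjusted p under 0.05 (limma), 7 of the 14 were higher and 0 lower, against 10.7% and 5.59% of all genes tested. The median of the list was 0.96. Its summed FPKM did not overlap, with 1411 to 2121 in control and 3259 to 4934 in B16 libraries. The glucose transporter Slc2a1 went from 17.9, 7.37 and 0 to 143, 77.6 and 174 FPKM (difference 4.54, adjusted p = 0.0215). The list of hypoxia-induced genes, which does not hold Gapdh, Ldha, Slc2a1 or Stc1, gave 0 calls of 15 tested by limma. At an unadjusted p under 0.05, 4 of the 15 were higher and 0 lower, against 10.7% and 5.59% of all genes tested. Lipid genes divided. Fabp4, a fatty acid chaperone of capillary endothelium, rose from 4.81, 33.2 and 22.7 to 1141, 141 and 701 FPKM (difference 4.85, adjusted p = 0.0098), while the fatty acid translocase Cd36 fell from 92.6, 33.3 and 63.5 to 9.87, 0 and 0.526 FPKM (difference -4.54, adjusted p = 0.0497). The call of Phgdh was kept with any 1 library left out, that of Asns was lost without B16 replicate 1, 2 or 3 (adjusted p up to 0.0895), that of Gapdh was lost without control replicate 1 or 3 or B16 replicate 1 or 3 (adjusted p up to 0.0996), and that of Ldha was lost without control replicate 3 or B16 replicate 2 or 3 (adjusted p up to 0.108). That of Slc2a1 was lost without B16 replicate 1, 2 or 3 (adjusted p up to 0.0992), that of Fabp4 was lost without B16 replicate 3 (adjusted p = 0.0556), and that of Cd36 was lost without control replicate 1, 2 or 3 or B16 replicate 2 or 3 (adjusted p up to 0.172).

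Among redox genes Gsto1, a glutathione transferase, had 0, 0.577 and 0 FPKM in control and 72.1, 75.8 and 252 in B16 MLECs (difference 6.59, adjusted p = 0.0024), and the metallothionein Mt2 had 2.07, 0 and 7.88 and 154, 93.1 and 289 (difference 5.75, adjusted p = 0.00565). Both calls were kept with any 1 library left out, while Mt1, its neighbor, overlapped between the groups. Sod1, a cytosolic superoxide dismutase with tight replicates, rose by 1.09 (standard error 0.18, adjusted p = 0.0098), a call lost without B16 replicate 2 (adjusted p = 0.0519). Of 74 tested respiratory chain subunits 1 was called, Cox4i1 at 0.79 (adjusted p = 0.042, lost without control replicate 1 or 3 or B16 replicate 1, 2 or 3 (adjusted p up to 0.162)). Of 82 tested ribosomal protein genes 5 rose and 0 fell (limma; 30 higher and 0 lower at an unadjusted p under 0.05, against 10.7% and 5.59% of all genes tested), with a median of 0.42 that became 0.11 with quantile normalization. The steadiest of them was Rpl41, with 5077, 5568 and 5207 and 7949.8, 9552 and 8591 FPKM (difference 0.72, adjusted p = 0.0086). Ribosomal protein genes have many processed pseudogenes, so that their reads could be split.

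Actin and cell shape genes were high in count, with 7 of 28 called higher and 0 lower, a median of 1.64, and 21 members above control in every B16 library, against 10.7% of all genes tested. Cdc42ep3, an effector of the GTPase CDC42, had 0, 0.303 and 0 FPKM in control and 140.5, 247 and 80.2 in B16 MLECs (difference 7.02, adjusted p = 5.73e-04). Capg, an actin capping protein, had 0, 22.6 and 0.818 and 282, 224 and 523 FPKM (difference 6.52, adjusted p = 0.00454), and Lcp1, an actin bundling protein best known in leukocytes, was at 0 in controls and 23.6, 19.5 and 34.1 FPKM in B16 MLECs (adjusted p = 0.00373). These calls and that of Palmd (5.53) were kept with any 1 library left out, and that of Stmn1 (5.47, adjusted p = 0.0225) was lost without control replicate 1 or B16 replicate 1, 2 or 3 (adjusted p up to 0.0858). Cdc42 itself overlapped, with 274, 296 and 339 and 245, 394 and 388 FPKM.

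BMP and TGF-beta genes went both ways. Smad6, an inhibitor of BMP signaling, was listed at 0 in controls and at 9.45, 10.2 and 11.1 FPKM in B16 MLECs (adjusted p = 0.0215), and the coreceptor gene Eng rose. Id2, a target of BMP signaling, fell from 676, 521 and 413 to 157, 75.5 and 196 FPKM (difference -1.98, adjusted p = 0.0327), as did the receptor gene Tgfbr2 from 176, 168 and 335 to 69.5, 45.4 and 30.3 FPKM (difference -2.21, adjusted p = 0.0303). The call of Smad6 was lost without B16 replicate 1, 2 or 3 (adjusted p up to 0.0852), that of Id2 was lost without any 1 of the 6 libraries (adjusted p up to 0.102), and that of Tgfbr2 was lost without control replicate 3 or B16 replicate 2 or 3 (adjusted p up to 0.117). Few or no members of the remaining lists were called. Limma called 0 of 22 immediate early genes (5 higher and 1 lower at an unadjusted p under 0.05), 0 of 16 heat shock chaperones (2 and 1), 0 of 13 arterial and Notch genes (2 and 1), and 1 of 20 cell cycle genes, Ccnd3 (2.12, adjusted p = 0.0278, lost without control replicate 1 or 3 or B16 replicate 2 or 3 (adjusted p up to 0.12)), with 4 and 1 at an unadjusted p under 0.05. Their medians were 0.32, 0.23, 0.88 and 0.95 in that order, against 0.18 over all genes. The summed FPKM of the cell cycle genes did not overlap, with 365 to 688 in control and 783 to 1427 in B16 libraries.

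Genes that fell were fewer. Sepp1, the selenoprotein P gene at 3218547 to 3230508 of chromosome 15 in mm9, was the steadiest of them, with 4043, 4446 and 4528 FPKM in control and 652, 432 and 566 in B16 MLECs. Its difference of -3.00 (standard error 0.25, limma adjusted p = 2.28e-04) passed the threshold under each of the 20 alternatives run, as that of Igfbp3 did, and Ly6c1 and Tmem252 passed it in the 19 alternatives that tested them. Gm525, a gene model without an assigned role here, fell from 801, 1325 and 1600.0 FPKM to 82.2 FPKM in B16 replicate 1, 18.2 in replicate 2 and 17 in replicate 3 (difference -5.29, adjusted p = 0.00834) and overlaps a small RNA gene on the other strand. Tslp, a cytokine that acts on dendritic cells, had 17.2, 22.6 and 33.1 FPKM in control and was listed at 0 in all B16 libraries (adjusted p = 0.00622). Pxmp2, a peroxisomal membrane channel, also went to 0 from 19.1, 22.6 and 49.8 FPKM (adjusted p = 0.00661). The calls of Gm525, Tslp and Pxmp2 were kept with any 1 library left out.

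Cd82, a tetraspanin, fell from 37.1, 69.7 and 40.4 to 0.352, 2.90 and 0.158 FPKM (difference -4.72, adjusted p = 0.0141), a call lost without B16 replicate 3 (adjusted p = 0.0609). Gpm6a, a membrane glycoprotein best known in neurons, went from 426, 313 and 197 to 21.6, 25.9 and 45.5 FPKM (difference -3.29, adjusted p = 0.0272), a call lost without control replicate 1 or 2 or B16 replicate 1, 2 or 3 (adjusted p up to 0.0925). Ank, a pyrophosphate transporter, fell by 3.39 on the log2 scale (adjusted p = 0.025), a call lost without control replicate 1 or B16 replicate 1, 2 or 3 (adjusted p up to 0.0996). The largest fall, that of Fam180a from 109, 36.0 and 24.9 to 0.379, 0 and 0 FPKM (difference -5.41, adjusted p = 0.0292), was lost without control replicate 1 or B16 replicate 1, 2 or 3 (adjusted p up to 0.106). Next in size was Gm19705, a gene model that went from 238, 201 and 176 to 0, 21.9 and 4.31 FPKM (difference -5.37, adjusted p = 0.0322), a call lost without control replicate 1, 2 or 3 or B16 replicate 1 or 3 (adjusted p up to 0.106).

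Markers of other cells were examined for each library. The melanocyte genes Pmel, Mlana and Tyr were listed at 0 in all 6 libraries, and the 14 melanoma and melanocyte markers summed to 22.9 to 60.1 FPKM in control and 2.59 to 9.20 in B16 libraries, with 0 calls of 2 tested. The leukocyte genes Ptprc, Cd3d and Cd3e were at 0 in all 6, and the 24 leukocyte markers summed to 267 to 522 and 43.1 to 309 FPKM, with 0 calls of 4 tested. That list does not hold Lcp1, which rose as given above. Nor does it hold Ms4a6d, at 0 in all controls and 37.5, 48.7 and 51.8 FPKM in B16 MLECs (limma adjusted p = 5.59e-04). Whether leukocyte RNA had a part in these rises was not tested. The fibroblast gene Dcn, the gene of decorin, fell from 21.8, 44.9 and 15.7 to 0, 0 and 0.141 FPKM (difference -4.63, adjusted p = 0.00494), while Col1a1, Col1a2 and Col3a1 did not exceed 2.53 FPKM in any library. The 13 fibroblast markers summed to 16.2 to 50.6 FPKM in control and 0.599 to 26.9 in B16 libraries, and the highest B16 sum was that of replicate 1, where Pi16 had 23.1 and Pdgfra 3.85 FPKM, both at 0 in the other 5 libraries. On the neural and glial list S100b rose from 0, 0.739 and 0 to 37.0, 36.5 and 25.3 FPKM (difference 4.80, adjusted p = 0.00956), while Gfap and Aqp4 were at 0.0893 FPKM or less. The melanoma and melanocyte list does not hold S100b, so the sums of that list leave its rise out. Which cells the S100b transcripts came from was not tested. Mural markers summed to 1270.1, 203 and 169.8 FPKM in control and to 101, 137 and 126 FPKM in B16 libraries, so that every B16 library was below every control, with 0 calls of 2 tested (0 at an unadjusted p under 0.05). In control replicates 2 and 3 most of that sum was Kcnj8, a potassium channel gene, at 195 and 169 FPKM. Without control replicate 1, 157 genes rose and 32 fell.

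**Figure D4:**
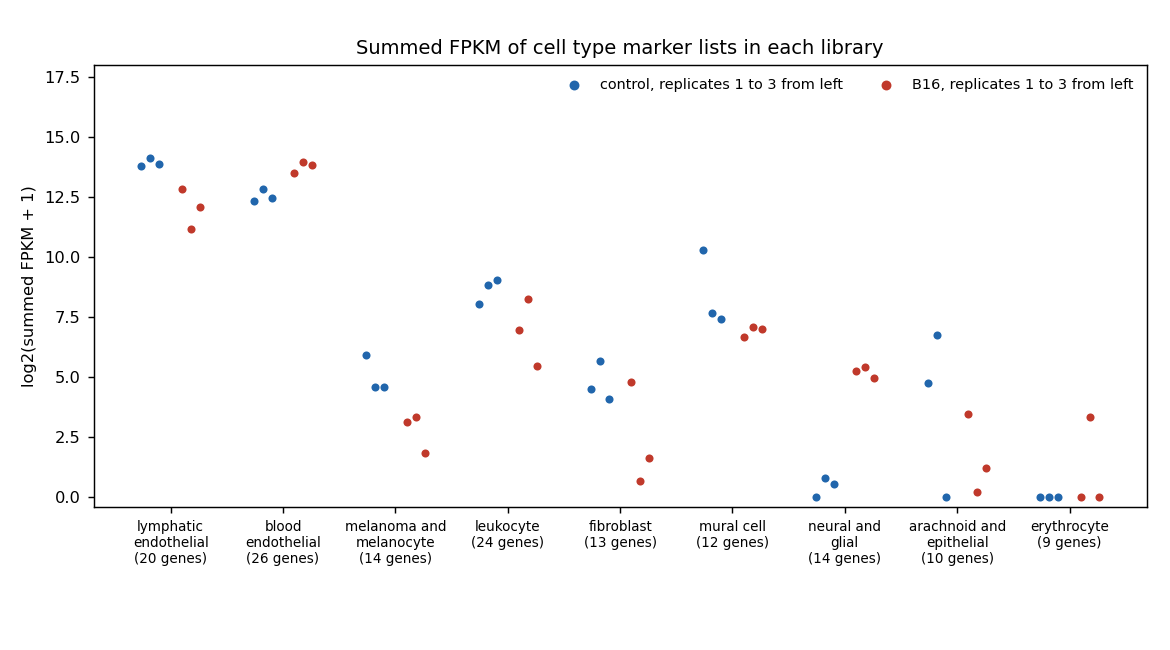
Summed FPKM of marker lists, as log2(sum + 1), in each control (blue) and B16 (red) library, with the number of listed genes. Lymphatic sums are lower and blood endothelial sums higher in the B16 libraries, melanocyte sums stay under 10 FPKM there, and control replicate 1 stands apart in mural cell genes.

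Depth moved with the tumor, so the called genes were followed into the shallowest B16 library. All 269 lay beyond every control in B16 replicate 1 as in replicates 2 and 3, which the absence of overlap fixes. Against B16 replicate 1 alone, the median difference was 3.96 in the genes that rose and -3.50 in those that fell, against 4.00 and -3.39 with all B16 libraries, sizes that are in part fixed by how these genes were called. With B16 replicate 1 as the only B16 library, 5 of the 269 calls held. Of the 203 that rose, 90 had their lowest B16 value in replicate 1, 67 in replicate 2 and 46 in replicate 3, while over all genes tested replicate 1 was lowest in 36.6%, replicate 2 in 32.9% and replicate 3 in 26.7%. With aligned reads (log2) added to the model, all 269 kept their sign, with medians of 3.70 and -3.37, and the median standard error of the genes that rose went from 0.73 to 1.09. Only Igfbp3, Ly6c1, Stc1, Tmem252 and Sepp1 then passed the threshold. With the number of detected genes as a covariate 14 passed, among them Flt1, Ass1, Cdc42ep3 and Vwa1.

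**Figure D5:**
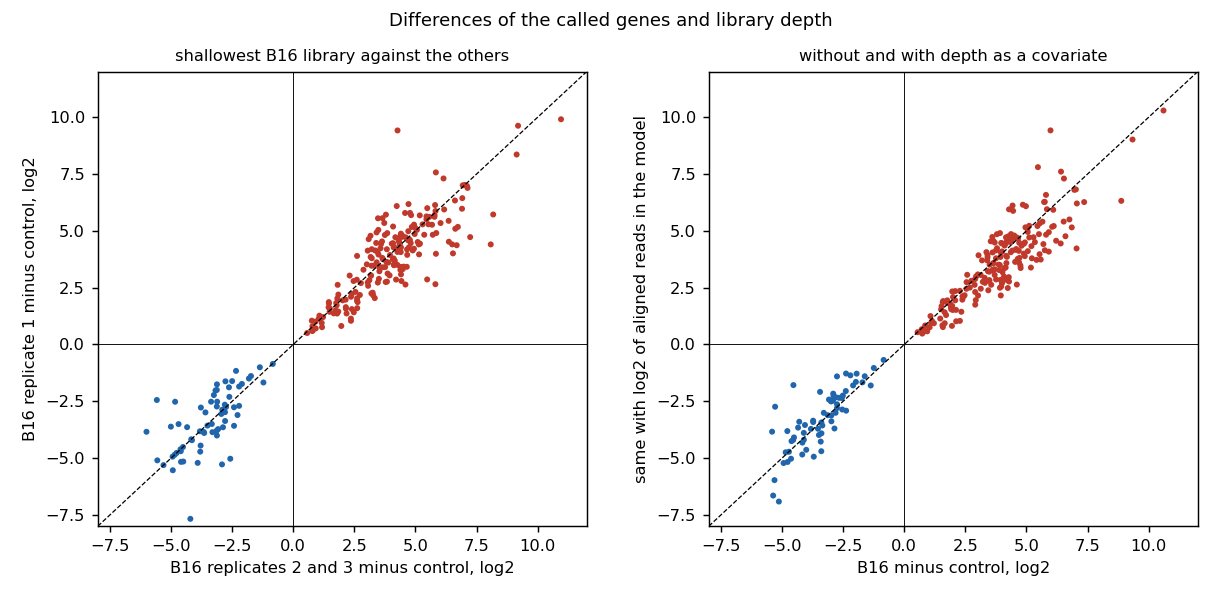
Differences of the 269 called genes in log2(FPKM + 1), red where higher and blue where lower in B16. Left, B16 replicate 1 against replicates 2 and 3, each minus control. Right, the fit with aligned reads as a covariate against the fit without. Points lie on both sides of the dashed line of equality, and none changes sign, which in the left panel the absence of overlap fixes.

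The B16 libraries differed among themselves in some of the called genes. The 5 with the widest range over B16 libraries were Scgb3a1, Gm19705, Fam167b, Gng10 and Kcne3. Scgb3a1, a secretoglobin of epithelia, had 1001, 23.3 and 31.7 FPKM, so that replicate 1 was far above the others, against 0, 2.15 and 0 in control (difference 5.98, adjusted p = 0.0493), and its call was lost without any 1 of the 6 libraries (adjusted p up to 0.136). Fam167b was lowest in replicate 1, with 20.1, 396 and 183 FPKM. Gng10, a G protein subunit, fell by 4.06 on the log2 scale with 13.3, 0 and 7.30 FPKM left (adjusted p = 0.038), a call lost without control replicate 1, 2 or 3 or B16 replicate 2 or 3 (adjusted p up to 0.088). The log2 range over the B16 libraries was 5.37 in Scgb3a1 and 0.23 in Foxc2.

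The libraries of MLECs from mice with GL261, a glioma line, give a further measure, though the comparisons with PBS share the control libraries. In those libraries Igfbp3 had 2475, 2354 and 3206 FPKM, Ly6c1 4375, 3719.9 and 1886 and Flt1 105, 128 and 99.1. Tested directly, B16 and GL261 MLECs differed past the threshold in 1 gene, B2m (0.0118% of the genes tested), while 412 genes (4.86%) had an unadjusted p under 0.05. B2m had 15798, 18703 and 16928 FPKM in GL261 libraries, all above those of B16 (difference -2.37, limma adjusted p = 3.14e-04). S100b and Foxc2, chosen after their values were seen, had 0, 3.00 and 0 and 1.53, 1.99 and 0 FPKM there, and their B16 minus GL261 differences of 4.40 and 2.16 did not pass the threshold (adjusted p = 0.175 and 0.666).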

How the data were processed

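MLEC RNA-seq libraries of 3 control, 3 B16 and 3 GL261 pools were sequenced in pairs of reads with a modified Smart-seq2 protocol. The authors aligned reads to mm9 with TopHat 2.0.12 and computed the deposited FPKM with Cufflinks 2.2.1, without read counts. The annotation they used is not given in the sources used here. With no counts, a library's depth and the counting error of a value are unknown from these values, and the aligned reads listed in the study's supplement entered only as a covariate. Values of 0 can be failed estimates.

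Genes were kept where 3 or more of the 6 control and B16 libraries reached 1 FPKM, and tested on log2(FPKM + 1), a scale that understates the change of low genes, with limma 3.58.1 in R 4.3.3 (lmFit on all 9 libraries in 3 groups, eBayes with a trend, contrasts B16 minus control and B16 minus GL261). Benjamini-Hochberg adjustment ran over the 8484 genes, with a threshold of 0.05. The residual degrees of freedom were 6. An exact permutation test of 3 against 3 libraries cannot go below p = 0.1 and was not used. Where a group is listed at 0, no fold is given. The fit was tested on simulated data. Figures and counts used Python 3.11.15, numpy 2.4.6, pandas 2.3.3 and matplotlib 3.10.9.

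The members, gene lists and alternatives were chosen with earlier results of these data known. The naming rules picked the 15 largest rises and falls without overlap. Of each list they picked up to 5 called members and the first 3 members. Up to 10 called genes in each direction above 0 in all 6 libraries were picked as well. So were genes that differed between B16 and GL261 and the 5 called genes with the widest range over B16 libraries. Not every gene picked is named in the text. Emcn, Gm1987, Ccl21b, Ccl21c, Ms4a6d, Nrp1, Plvap, Timp2, Trp53i11, Rnu12 and the genes under other observations were added after their values were seen. Lists are described by counts and medians, without a test. For a call lost with 1 library left out, the highest adjusted p among those fits is given. Positions came from GENCODE M1 (mm9) by symbol. The library kit does not mark strand, and of the 95 called genes that the naming rules picked, 36 overlap another gene, 28 on the opposite strand.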

Additional observations from a re-analysis of the deposited data

Results flagged for a closer look

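B2m differed between the 2 tumors. The difference of B16 from GL261 MLECs was -2.37 on the log2 scale (standard error 0.18, limma adjusted p = 3.14e-04), and it was the call among 8484 genes in that contrast. B2m had 3268, 3525 and 3114 FPKM in B16 libraries and 15798, 18703 and 16928 in GL261 libraries, without overlap. B2m was lower than control in B16 MLECs (-0.84, adjusted p = 0.0307) and higher than control in GL261 MLECs (1.53, adjusted p = 0.00137), in comparisons that share the control libraries. The GL261 mice were killed about 3 weeks and the B16 mice about 2 weeks after injection, so that tumor and time cannot be told apart.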

How the results depend on the processing

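No called gene changed sign in any of the 20 alternatives, which the absence of overlap fixes in most of them. Only rescaling, quantile normalization and the covariates could have changed a sign. Against 203 genes higher and 66 lower, the counts were 71 and 22 with the 6 libraries alone, 120 and 29 with any gene above 0 in at least 1 library, 56 and 34 with genes above 0 in all 6, 124 and 23 with array weights, 4 and 1 with aligned reads as a covariate, 12 and 2 with detected genes as a covariate, and 4 and 4 with B16 replicate 1 alone. The loss of calls with covariates came with larger standard errors. Quantile normalization gave 174 higher and 104 lower (103 of these without overlap), and it moved the median of all genes from 0.18 to -0.05. Counts with 1 library left out ranged from 74 to 299 higher and from 17 to 59 lower. They were 157 and 32 without control replicate 1, 299 and 59 without control 2, 173 and 34 without control 3, 114 and 25 without B16 replicate 1, 90 and 17 without B16 2, and 74 and 17 without B16 3. Genes without overlap gave the same counts in these fits except where stated. In all, 59 calls held in each of the 17 alternatives that used neither covariate nor B16 replicate 1 alone.

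Same-numbered control and B16 libraries deviated together with correlations of 0.010, 0.018 and -0.0012, so the numbers did not pair the libraries. The replicate block gave 128 higher and 32 lower genes and kept 156 of the 269 calls.

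Between B16 and GL261, 1 gene passed the threshold, against 5 with a pseudocount of 10, 2 with genes above 0 in all 6, 2 with quantile normalization, 0 without a trend, 12 with array weights, 4 with B16 replicate 1 alone and from 1 to 2 with 1 library left out.

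Of 24 tested genes without a call that were followed, among them Bnip3 and Gja4, which are not named above, 10 changed sign in at least 1 alternative. With aligned reads as a covariate Cdc42 gave -0.14, Cldn5 0.20, Esm1 -2.50, Lama4 0.0051, Lyve1 0.69, Pdpn 0.78 and Vcam1 -1.07, and with detected genes as a covariate Cdc42 gave -0.075, Lama4 0.026, Lyve1 0.61 and Vcam1 -1.38. With B16 replicate 1 alone Cdc42 gave -0.30, Cldn5 0.094, Esm1 -1.27, H2-K1 0.011 and Lyve1 0.57, and with quantile normalization Cdc42 gave -0.044. With 1 library left out, H2-D1 ran from -0.30 to 0.086 (positive without control replicate 3 and, at 0.043, without B16 replicate 2), Kdr from -0.66 without B16 replicate 2 to 0.14 without B16 replicate 1, and Lyve1 from -0.75 without B16 replicate 1 to 0.043 without B16 replicate 2. Esm1 ran from -0.36 without B16 replicate 2 to 3.65 without control replicate 1, and Vcam1 from -0.51 without B16 replicate 3 to 2.17 without control replicate 2. Without read counts, what depth limits for a single value cannot be given.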

Other observations

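Among the 59 calls that held in the 17 alternatives that used neither a depth covariate nor B16 replicate 1 alone, several belong to none of the groups above, and the genes named here were chosen after their values were seen. Lrg1, a secreted glycoprotein that modulates TGF-beta signaling in vessels, had 159, 289 and 313 FPKM in control and 3638, 949.8 and 2343 in B16 MLECs (difference 3.04, limma adjusted p = 0.00545). Inhbb, which encodes the beta subunit of activin B, was listed at 0 in all controls and at 50.6, 19.6 and 37.8 FPKM in B16 MLECs (adjusted p = 0.00411). Tsc22d3, a gene induced by glucocorticoids, went from 54.8, 31.7 and 26.0 to 404, 344 and 328 FPKM (difference 3.29, adjusted p = 0.00208). Its B16 values were close to one another, and the highest control was far below them.

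Enzymes and mitochondrial genes were found there as well. Impdh1, which catalyzes a step of guanine nucleotide synthesis, was listed at 0 in all controls and at 33.9, 30.0 and 31.8 FPKM in B16 MLECs (adjusted p = 0.00256), and Smox, a spermine oxidase, at 0 and 21.7, 30.8 and 35.6 FPKM (adjusted p = 0.00376). Ucp2, a carrier of the inner mitochondrial membrane, had 35.7, 44.5 and 67.2 and 393, 538 and 357 FPKM (difference 3.13, adjusted p = 0.00162). Ceacam1, an adhesion molecule of vessels and leukocytes, had 0, 0 and 0.141 and 19.2, 33.1 and 21.6 FPKM (difference 4.58, adjusted p = 0.00648). All 7 were above every control in each B16 library, as were all 203 genes that rose and 10.7% of the genes tested. Since the 7 were chosen among called genes, this order adds no support.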
